A study of Mus musculus with 56 samples.

Results

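Of the 9077 peaks that the authors list with lower H2A.Z, 1591 were centred in an intron and outside annotated repeats and CpG islands. They were chosen by the annotation in that list: the main annotation names an intron, and the detailed annotation names neither a repeat nor a CpG island. These non-repeat intron peaks made up 17.5% of the lower peaks (95% exact Clopper-Pearson interval 16.8 to 18.3%) and 63.1% of the 2523 lower peaks in introns. Another 538 lower intron peaks lay in CpG islands and 394 in repeats. The lower call itself chose them, so it is a description here and carries no test. Over the whole set of 61420 H2A.Z peaks, 14.8% were called lower.

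H2A.Z was profiled by CUT&Tag, in which an antibody brings a transposase to chromatin and the tagged fragments mark where the protein lies. The cells were RHKI, mouse embryonic stem cells of the E14Tg2a background with an HA-Rnaseh1 knock-in, whose expression doxycycline induces. All of them were grown in 2i/LIF medium on NDiff 227 with 2% FBS, with 2 kinase inhibitors, the GSK3 inhibitor CHIR-99021 at 3 µM and the MEK inhibitor PD0325901 at 1 µM. The control group had 4 libraries and no doxycycline, and the doxycycline group had 4 libraries after 500 ng/ml for 48 hours. Both groups carry the knock-in, and cells without it were not analysed here, so an effect of doxycycline and one of RNase H1 cannot be told apart. Whether the replicates are separate cultures is not given in the sources used here. The lists hold positions and annotation and no value per library, so no level, fold change, sequencing depth or spread between replicates can be given for a peak. Lower is read as doxycycline against control from the name of the list.

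H2A.Z is a variant of histone H2A that marks the nucleosomes beside active and poised transcription start sites (TSSs) and many enhancers. RNase H1 cuts the RNA strand of RNA:DNA hybrids, which form R-loops behind transcribing polymerase and often lie just downstream of a TSS. Introns hold enhancers and alternative promoters, and intron 1, which adjoins the promoter, is often the longest of a gene.

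A minority of the non-repeat intron peaks reached over a start site. The RefSeq promoter table for GRCm38.p6 gives 300 bases for each gene start, 250 before it and 50 from it onwards, and 194 of the peaks held at least 1 such window whole. In 164 of them the window was that of the gene whose intron the peak was centred in. The 4 windows printed here belong to 4 of the 10 widest non-repeat intron peaks on named genes and were picked, after their values were seen, to show how unlike each other such promoters were. They are given 5′ to 3′ on the strand of the gene, with every CG dinucleotide in capitals. Islr2 encodes a leucine-rich repeat membrane protein of neurons (chr9:58202295-58202594, minus strand, 11 CG, 58.3% GC). Gad1 encodes the enzyme that makes the neurotransmitter GABA (chr2:70561879-70562178, plus strand, 21 CG, 60.0% GC). Tmem151a encodes a transmembrane protein (chr19:5085442-5085741, minus strand, 43 CG, 77.3% GC), and Cldn19 a claudin of tight junctions (chr4:119255191-119255490, plus strand, 4 CG, 59.3% GC).
Islr2: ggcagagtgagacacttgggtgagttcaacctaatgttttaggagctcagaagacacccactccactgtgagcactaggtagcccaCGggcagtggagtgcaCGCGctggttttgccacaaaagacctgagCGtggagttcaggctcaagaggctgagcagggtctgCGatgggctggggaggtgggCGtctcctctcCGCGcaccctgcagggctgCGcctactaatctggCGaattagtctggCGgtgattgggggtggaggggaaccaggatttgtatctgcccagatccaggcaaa
Gad1: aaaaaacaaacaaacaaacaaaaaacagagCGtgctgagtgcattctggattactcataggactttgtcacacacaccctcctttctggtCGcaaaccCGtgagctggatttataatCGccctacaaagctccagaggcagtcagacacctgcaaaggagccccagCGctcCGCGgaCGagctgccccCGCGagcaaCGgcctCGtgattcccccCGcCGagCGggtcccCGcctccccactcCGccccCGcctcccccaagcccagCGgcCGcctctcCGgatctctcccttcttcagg
Tmem151a: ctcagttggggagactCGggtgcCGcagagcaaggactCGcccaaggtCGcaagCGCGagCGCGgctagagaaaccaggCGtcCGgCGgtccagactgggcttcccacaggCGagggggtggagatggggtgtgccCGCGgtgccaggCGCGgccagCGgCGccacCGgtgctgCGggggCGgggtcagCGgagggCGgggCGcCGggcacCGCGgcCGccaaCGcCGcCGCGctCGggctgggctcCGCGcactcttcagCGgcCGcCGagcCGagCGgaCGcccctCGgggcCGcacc
Cldn19: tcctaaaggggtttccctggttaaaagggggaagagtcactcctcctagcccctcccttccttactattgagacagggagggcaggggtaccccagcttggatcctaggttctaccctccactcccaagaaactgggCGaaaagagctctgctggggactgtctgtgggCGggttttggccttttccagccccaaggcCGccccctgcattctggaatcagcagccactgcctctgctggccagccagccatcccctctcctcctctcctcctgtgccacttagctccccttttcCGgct

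The 4 windows run from the CG-poor start of Cldn19 to the CG-rich start of Tmem151a, at similar GC in Islr2, Gad1 and Cldn19. Over the 257 promoter windows held by non-repeat intron peaks the median was 16 CG (95% interval 14 to 18) and 62.0% GC. Over the 8188 windows held by peaks in neither list the medians were 16 CG and 58.3% GC, and over all 32851 windows in the promoter set they were 7 CG and 52.7% GC. A CG count over 0.6 of that expected from base composition was found in 46.3% of the windows in non-repeat intron peaks, in 56.2% of those in peaks of neither list and in 35.8% of all windows. The GC skew, (G − C)/(G + C) on the gene's strand, had medians of 0.0244 (−0.00541 to 0.0417), 0.0114 and 0.0128 in these 3 sets. These are descriptions of windows that share genes and start sites, and the annotation rule that removed peaks centred in CpG islands bears on them. One mature miRNA lay in a non-repeat intron peak. It was mmu-miR-1932, on the plus strand at chr11:119390524-119390545, in a peak centred in intron 1 of Rnf213, which encodes a large ubiquitin ligase. Its RefSeq sequence, with the seed in capitals, is as follows.
mmu-miR-1932: gUUGCGGAcagcgcuaggucgg

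Intron 1 held more of the peaks than any other single intron. It held 601 of the 1591 (37.8%, 35.4 to 40.2%), intron 2 held 192 (12.1%) and intron 3 held 149 (9.37%). Introns 4 to 9 together held 358 (22.5%), and intron 10 or a later one held 291 (18.3%). The highest intron number was 102 of 118, in the type VII collagen gene Col7a1. The last of 2 or more introns held 145 peaks (9.11%), and 52 peaks (3.27%) lay in the single intron of their transcript. The transcripts were mostly long, with a median of 11 introns. In the 802 peaks of transcripts with over 10 introns, intron 1 still held 197 (24.6%, 21.6 to 27.7%). Intron lengths were not used here, so these shares are not corrected for the length of intron 1.

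**Figure D1:**
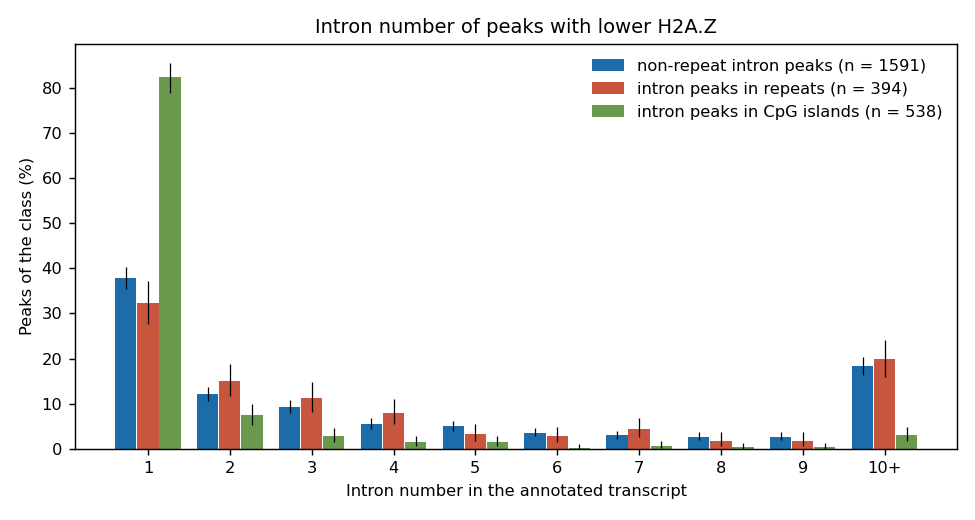
Share of peaks by intron number (x axis, 10+ for intron 10 and later; y axis in %) for lower intron peaks outside repeats and CpG islands, in repeats and in CpG islands; bars are shares and error bars 95% Clopper-Pearson intervals. Intron 1 holds 37.8% of the non-repeat intron peaks, 32.2% of those in repeats and 82.3% of those in CpG islands.

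The median distance from the centre of a non-repeat intron peak to the nearest TSS was 9.36 kb (95% interval 8.31 to 10.2 kb), from 122 base pairs to 443 kb. Within 1 kb lay 303 peaks (19.0%), and 275 of these were in intron 1. Between 1 and 5 kb lay 289 (18.2%), between 5 and 20 kb 509 (32.0%), between 20 and 100 kb 438 (27.5%) and beyond 100 kb 52 (3.27%). The share in intron 1 went down along these bands, from 90.8% within 1 kb through 46.4%, 24.0% and 14.6% to 11.5% beyond 100 kb. Peaks of intron 1 had a median distance of 1.30 kb (quartiles 0.435 and 7.71 kb), those of intron 2 of 9.55 kb and those of intron 3 or later of 16.7 kb. All these distances are of the authors' annotation. By the RefSeq promoter table, 22 peaks that the annotation puts over 3 kb from a TSS lay within 1 kb of a start. By the annotation, only 28 peaks in intron 2 or later lay within 1 kb of a TSS, and for 25 of these the TSS was of the host gene itself. Among them was a peak of 5533 base pairs in intron 4 of 22 of Nfkb2, a subunit of the transcription factor NF-kappaB, which was picked here after its values were seen.

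The peaks fell into those that ran over the nearest TSS and those that lay wholly to one side of it. The nearest TSS was inside 340 peaks (21.4%, 19.4 to 23.5%), which held it by having a centre no farther from it than their own half-width. These had a median width of 2052 base pairs (1864 to 2295), and 277 of them (81.5%) were centred in intron 1. The other 1251 had a median width of 899 base pairs (864 to 923) at a median distance of 14.3 kb, and 324 of them (25.9%) were in intron 1. Of the 340, 330 were centred downstream of the TSS, from where they reached a median of 1563 base pairs into the gene and 331 base pairs upstream. That asymmetry follows in part from the rule, which asks for a centre in an intron. The difference in width follows in part from the definition of holding, since a wider peak can hold a TSS farther from its centre.

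**Figure D2:**
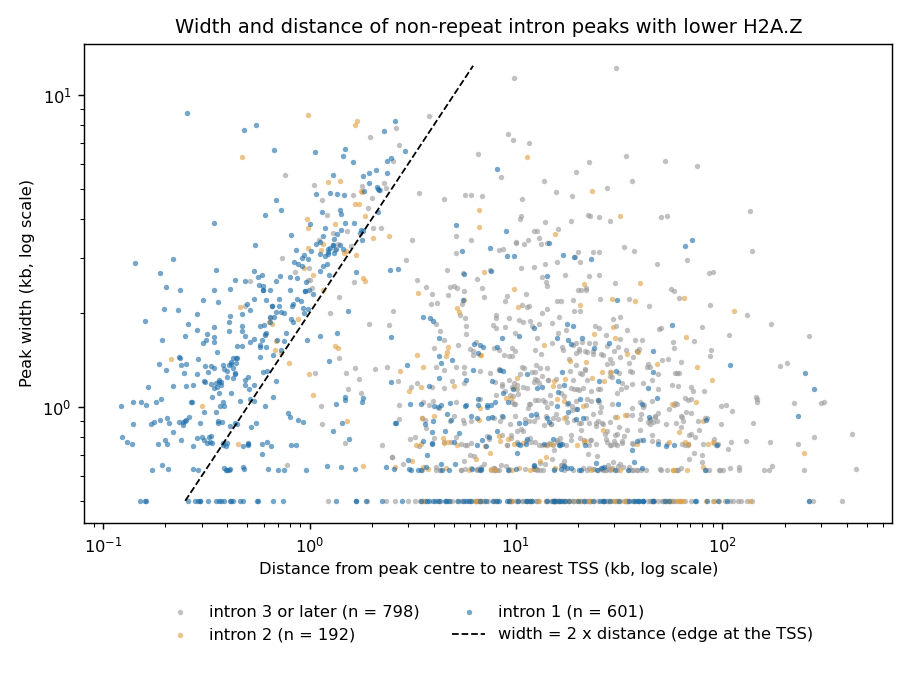
Peak width (y axis, kb, log scale) against distance from the centre to the nearest TSS (x axis, kb, log scale) for the 1591 non-repeat intron peaks, coloured by intron number; each point is 1 peak. Points left of the dashed line hold the TSS (340 peaks), and 277 of these are in intron 1; points along the bottom have the minimum width of 501 base pairs.

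Widths ran from 501 base pairs, the minimum in the peak set, to 12160, with a median of 1028 (1006 to 1059). The minimum was reached by 245 peaks (15.4%), and 53 (3.33%) were 5 kb or wider. Of these 53, 36 held the nearest TSS, which by the definition used comes more readily to a wide peak. The median was 1069 base pairs in intron 1 (1018 to 1181), 1038 in intron 2 (828 to 1236) and 999 in intron 3 or later (923 to 1039), so the intervals of the 3 overlapped. The last of 2 or more introns had a median of 1288 (1091 to 1476).

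The 12 widest peaks on named genes measured from 7676 to 12160 base pairs. The widest, of 12160 base pairs, was centred in intron 8 of 9 of Cspg4, the NG2 proteoglycan gene of pericytes and oligodendrocyte precursors (chr9:56889678-56901837), 30.7 kb from the TSS. The next, of 11289, was centred in intron 8 of 15 of Meltf, which encodes the iron-binding melanotransferrin (chr16:31882921-31894209), 9.76 kb from the TSS. Neither reached the nearest start site, and the Cspg4 peak ran past the end of its gene at 56899870. Grrp1 followed with 8759 base pairs (chr4:134249471-134258229, intron 1 of 1), then Islr2 with 8640 (chr9:58196418-58205057, intron 2 of 3) and Plekhm2, a lysosome adaptor gene, with 8544 (chr4:141623333-141631876, the last of 19 introns), which ran over the TSS of the neighbouring gene Slc25a34. Map1a, a microtubule-associated protein gene of neurons, had 8244 (chr2:121293913-121302156, intron 1 of 5). Gad1 had 8230 (chr2:70560936-70569165, intron 2 of 16), and its nearest TSS was that of the antisense gene Gad1os. Tmem151a had 8024 (chr19:5080918-5088941) and Slc30a3, a zinc transporter gene of synaptic vesicles, 7985 (chr5:31087873-31095857, intron 2 of 8). Cldn19 had 7857 (chr4:119254158-119262014, intron 3 of 4), Ly6g6e 7715 (chr17:35073717-35081431, intron 1 of 2) and Slc32a1, the vesicular GABA transporter gene, 7676 (chr2:158609217-158616892, intron 1 of 1). Gad1 and Slc32a1 together make and load the GABA of inhibitory neurons. Each of the 2 had no other H2A.Z peak centred in the gene.

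By the authors' annotation, the peaks farthest from any TSS lay in long genes, with widths of 501 to 1033 base pairs. The first was in intron 8 of 8 of Wwox, an oxidoreductase gene across a common fragile site, 443 kb from the TSS and 630 base pairs wide (chr8:114881901-114882530). It was followed by Spock1, a testican proteoglycan gene (intron 7 of 11, 424 kb, 820 base pairs, chr13:57484157-57484976), and Smyd3, a lysine methyltransferase gene (intron 5 of 11, 381 kb, 501 base pairs, chr1:179136723-179137223). Camta1 (intron 5 of 23, 312 kb from the TSS of the gene model Gm13090, 1033 base pairs) and the neurotrophin receptor gene Ntrk2 (intron 16 of 17, 300.5 kb, 1032 base pairs, chr13:59107642-59108673) were next. In 4 of these 5 genes most H2A.Z peaks were in neither list, at 9 of 10 in Wwox, 9 of 10 in Spock1, 2 of 3 in Smyd3 and 16 of 19 in Ntrk2, while in Camta1 8 of 17 were.

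Non-repeat intron peaks were compared with the 394 lower intron peaks in repeats, since both come from the same list and the lower call does not separate them. The non-repeat peaks lay nearer to a TSS, with medians of 9.36 and 26.6 kb (two-sided permutation test, adjusted p = 3e-05 over 3 tests, from a p of 1e-05, the smallest that 100000 resamples can give). They were wider, at 1028 base pairs against 882 by the median (permutation test, adjusted p = 0.00593). Intron 1 held 37.8% of them and 32.2% of those in repeats, an odds ratio of 1.28 with an interval of 1.01 to 1.61 (adjusted p = 0.0412 by Fisher's exact test). That call was lost without peaks of the minimum width, without chromosome X and in transcripts of 3 or more introns, at adjusted p of 0.0664, 0.0737 and 0.122 by the same exact test. The repeats were of unlike families. L1 elements, a family of retrotransposons, held 193 of the 394 (49.0%), with a median distance of 58.9 kb, a median width of 640 base pairs and 25.4% in intron 1. The 201 peaks in other repeats had medians of 11.6 kb and 1375 base pairs and 38.8% in intron 1. Against those 201 alone, the difference in distance was not called (−2.27 kb, permutation test, adjusted p = 0.183), the share in intron 1 gave an odds ratio of 0.957 with an interval of 0.708 to 1.29 (adjusted p = 0.817 by Fisher's exact test), and the width turned round, to a difference of −347 base pairs (permutation test, adjusted p = 6e-05). The peaks are not replicates of a condition, and neighbouring peaks of 1 gene share their source, so the p-values describe these peaks and not the conditions.

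**Figure D3:**
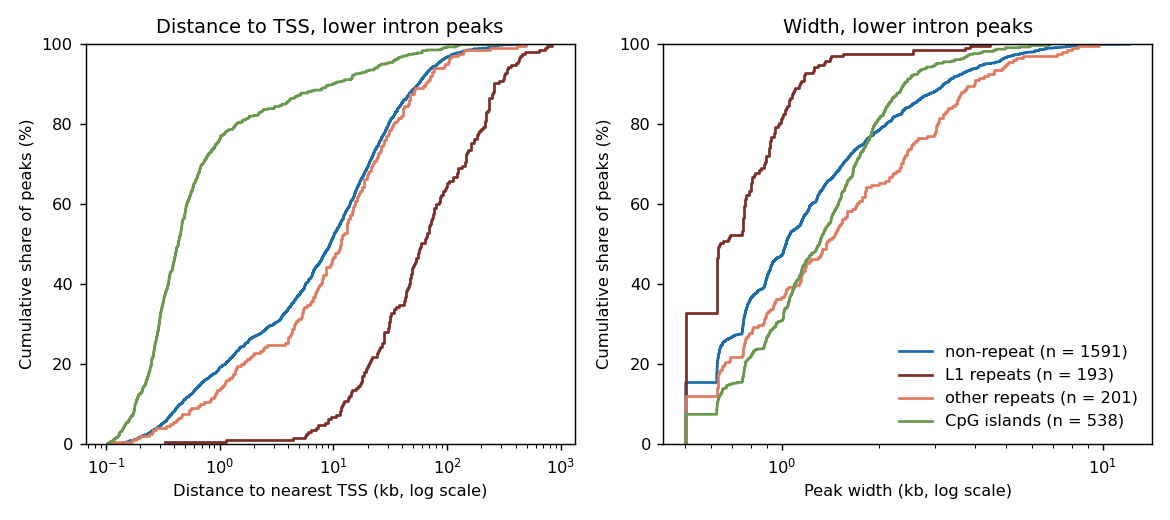
Cumulative share of lower intron peaks (y axes, %) by distance to the nearest TSS (left x axis, kb, log scale) and by width (right x axis, kb, log scale) for non-repeat peaks and those in L1 repeats, other repeats and CpG islands. The L1 curve lies apart, with medians of 58.9 kb and 640 base pairs, while the non-repeat and other-repeat curves of distance run close together.

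Lower intron peaks in CpG islands, which are mostly promoter sequences, had a median distance of 0.434 kb, and 82.3% were in intron 1. On the list of 318 peaks with higher H2A.Z, 48 were non-repeat intron peaks, with a median width of 501 base pairs and a median distance of 63.0 kb (28.1 to 108 kb), and 10 of them were in intron 1. The call separates these from the lower ones, so no test is given.

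The host gene of a peak, the gene whose intron holds its centre, was found in RefSeq for 1582 of the 1591 peaks. Of the other 9, 3 had a transcript not matched in the table and 6 a transcript that the table places elsewhere, 4 of them under the transcript of the small RNA gene Bc1, which the table has on chromosome 7. The 1582 peaks lay in 1283 host genes, of which 1239 were protein-coding and 37 lncRNA genes. Of the hosts, 1073 had 1 such peak, 155 had 2, 33 had 3 and 22 had 4 or more. The protein-coding hosts had a median length of 33.8 kb and a median of 3 H2A.Z peaks in the gene, against 28.8 kb and 1 peak for the 11256 protein-coding genes with any peak. Of those 11256 genes, 11.0% were hosts. The share was 5.07% for genes with 1 peak, 12.5% with 2, 19.7% with 3 or 4 and 25.3% both with 5 to 9 and with 10 or more.

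Camta1, which encodes a calmodulin-binding transcription activator, had the most, with 8 non-repeat intron peaks among the 17 H2A.Z peaks of its 802 kb (chr4:151059523-151861768). They lay in introns 3 to 9, with widths from 501 to 6122 base pairs. One other peak in the gene was lower and 8 were in neither list. Macrod1, an ADP-ribose hydrolase gene, had 6 among 12 peaks, the first of which was centred 5593 base pairs from its 5′ end. A peak read within 1 kb of a TSS of Macrod1 was in neither list. Septin9, a cytoskeletal GTPase gene, had 5 among 9, with widths from 905 to 6110 base pairs. Nfix, a nuclear factor I gene of brain and muscle development, had 5 among 9, in introns 1 and 2. Casz1, a zinc finger gene of heart and vessel development, had 5 among 14, 4 of them in intron 2 and the widest, of 5033 base pairs, in intron 4 (chr4:148922233-148927265). All 5 in Chst8, a sulfotransferase gene, lay in intron 2 of 3, among 10 peaks.

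Among genes of muscle, in Ryr1, the calcium release channel gene of skeletal muscle, 5 non-repeat intron peaks were spread over introns 2 to 90, among 10 H2A.Z peaks, and the TSS peak was in neither list. In Myom3, a gene of the sarcomeric M band, 5 of 7 peaks were non-repeat intron peaks in introns 5 to 35, and the gene had no H2A.Z peak within 1 kb of its TSS. Cspg4 had 4 of 5 and the remaining one was also lower, while the peak at its TSS, centred outside the gene, was in neither list. Cacna2d2, an auxiliary subunit gene of voltage-gated calcium channels, had 4 of 8, the widest of 7147 base pairs in intron 24 of 37 (chr9:107520660-107527806). For all 4 of these the nearest TSS was of the neighbouring gene Tmem115. In the map of these 10 genes, peaks of neither list lie between the lower ones in 9, and Cspg4 is the exception.

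**Figure D4:**
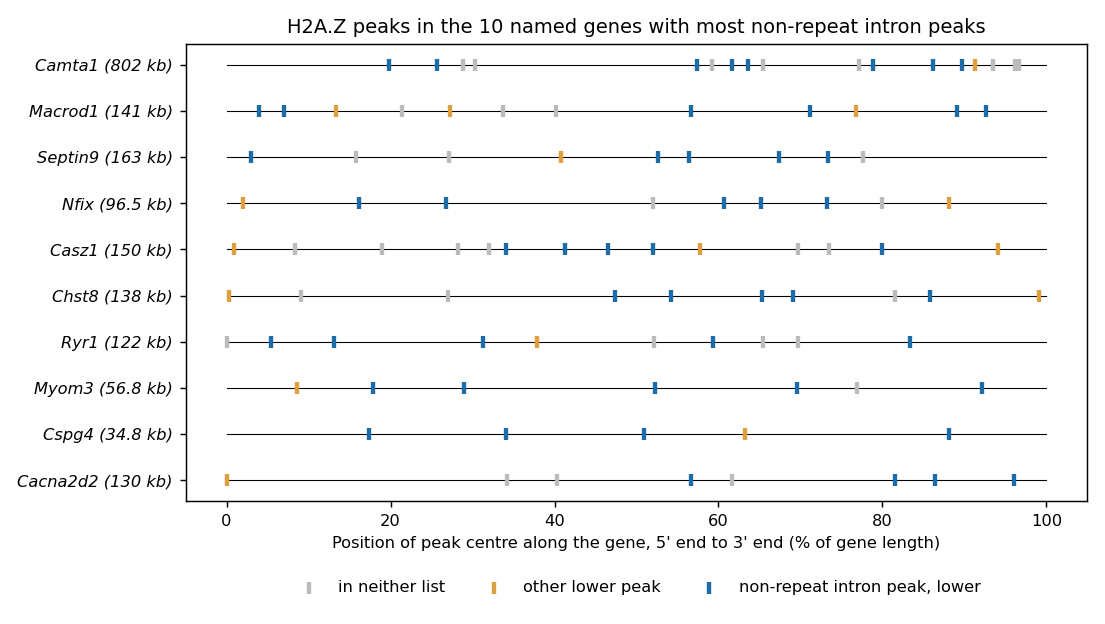
H2A.Z peaks along the 10 named genes with most non-repeat intron peaks, as position of the peak centre from the 5′ to the 3′ end (x axis, % of gene length, with the length beside each name); ticks mark non-repeat intron peaks, other lower peaks and peaks in neither list. In Camta1, 8 of 17 ticks are non-repeat intron peaks, and all 5 ticks in Cspg4 are lower.

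Across all hosts, the gene that holds the peak was also named as the gene with the nearest TSS for 1162 of 1582 peaks (73.5%, 71.2 to 75.6%). The other 420 lay a median of 19.5 kb from the nearest TSS, against 6.05 kb for the 1162, and 222 of them (52.9%) were upstream of it. An assignment by the named nearest gene would thus not give these 420 intron peaks to the gene they lie in. The 420 include peaks for which no nearest gene was named, such as the Ly6g6e peak and several in Nfix. Those were not counted apart from peaks nearest to another gene. Another lower peak belonged to the same host, by its intron or by its nearest TSS, for 935 of the 1582 peaks (59.1%). The next lower peak on the chromosome was a median of 20.2 kb away, and for 504 of the 1591 (31.7%) it was within 10 kb. The shares of 59.1% and 31.7% were not taken for other lower peaks, so they have no background here. In the 1276 hosts that were counted for all peaks of the gene, 774 also had a peak in neither list, 502 had only lower peaks and 0 had a higher one. A host with a single H2A.Z peak is among the 502 by the rule, and 315 protein-coding hosts had a single peak. Over the whole set of 61420 peaks, 14.8% were called lower and 318 peaks were on the higher list.

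The state of the TSS of the host was read within 1 kb of each start in the promoter table, which held 967 of the 1283 hosts. At 263 of these (27.2%) a lower peak that was no non-repeat intron peak lay within 1 kb of a TSS, whatever else did. At a further 307 (31.7%) a non-repeat intron peak itself came within 1 kb of a TSS. At 237 (24.5%) all peaks at the TSS were in neither list, and 160 (16.5%) had no H2A.Z peak there. Promoter windows were not used for the other 316 hosts. The state of the TSS was not read for genes that are not hosts. These shares therefore do not tell whether host start sites differ from others, and the 307 follow in part from the choice of the peaks.

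The hosts were then read by pathway, using 14 lists of 546 genes. The share given for a list is that of its genes with a non-repeat intron peak among its genes with any H2A.Z peak in the gene, and over all protein-coding genes it was 11.0%. The lower call chose both, so this is a description without a test. The genes of these lists also had more H2A.Z peaks per gene than the median of 1 over all such genes, for all lists except Notch, mesoderm and pluripotency, and the part of this in the shares was not tested. Over all protein-coding genes the share of hosts was 5.07% with 1 peak, 12.5% with 2, 19.7% with 3 or 4 and 25.3% with 5 to 9. The 11.0% is therefore not a background of genes with a like number of peaks.

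Wnt proteins are secreted ligands that stabilise beta-catenin, a pathway that GSK3 inhibitors such as CHIR-99021 activate. Of 35 Wnt pathway genes with a peak, 11 were hosts (31.4%), with 13 peaks of a median width of 1794 base pairs. The ligand gene Wnt9a had 2, of 4135 base pairs in intron 3 of 3 and 3849 in intron 1, and no other H2A.Z peak centred in the gene. Wnt10a also had 2 (3388 and 1299 base pairs) and no other. Wnt11 had 1 of 1794 base pairs in intron 4 of 6, and Wnt3 1 of 922 in intron 1. Among receptors, the Wnt5a receptor gene Ror2 had 1 of 3154 base pairs in intron 5 of 8, and the stem cell R-spondin receptor gene Lgr5 1 of 2208 in intron 1, 0.616 kb from the TSS, with 6 peaks in neither list. The destruction complex gene Apc2 had 1 of 2137.

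BMP and TGF-beta ligands signal through Smad proteins. Of 35 genes with a peak, 10 were hosts (28.6%). The ligand gene Bmp2 had its single H2A.Z peak in intron 1 of 2 (3308 base pairs, 1.41 kb from the TSS). Ltbp2 and Ltbp3 encode matrix proteins of the latent TGF-beta binding protein family. Ltbp2 had 2 (5315 and 893 base pairs), Ltbp3 1 of 2685, and the endothelial co-receptor gene Eng 2 (2770 and 759). The inhibitory Smad gene Smad6 had 2, of 1041 and 1031 base pairs, both in intron 3 of 3. FGF ligands act through receptor kinases and MAPK. Of 26 FGF and MAPK feedback genes 3 were hosts (11.5%), namely Fgfr3 (1825 base pairs, intron 7 of 16), Fgf8 (2 peaks, of 1382 and 910) and the feedback inhibitor Il17rd (632). That share lay near the background. Of 22 Notch genes 4 were hosts (18.2%), Dtx1 (1468), Heyl (920), the coactivator gene Maml3 (789 and 757, with 17 peaks in neither list) and Mfng (631).

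A further 4 lists were of endoderm, mesoderm and heart, neural patterning and pluripotency factors. All 4 endoderm hosts, of 16 such genes, had it in intron 1. Among them were the intestinal factor Cdx2 (3207 base pairs, 1.34 kb from the TSS), the pancreas factor Pdx1 (2009, 0.689 kb) and Hnf4a (755 base pairs, 6.47 kb from the TSS of the antisense gene Hnf4aos). Of 21 mesoderm and heart genes 5 were hosts (23.8%): Casz1, Tbx1 (3886, 0.344 kb), Gata6 (3223), the heart factor Nkx2-5 (3114, 1.32 kb) and Meox1 (1149 and 626). Neural patterning genes had 4 hosts of 32 (12.5%), all with peaks over 9 kb from a TSS: Pax5 (4070 base pairs in intron 8 of 9), Meis1 (915), Lmx1b (788) and Zfp423 (629 and 501). Of 16 pluripotency genes 2 were hosts (12.5%). This share and that of the neural patterning genes lay near the background of 11.0%. The de novo DNA methyltransferase gene Dnmt3a had 4, of 4015, 1684, 1402 and 633 base pairs, and Lin28a, an RNA-binding protein gene, had 1 of 501. The widest in Dnmt3a was in intron 4 of 22 (chr12:3870741-3874755), and that of 1684 base pairs was 0.485 kb from a TSS of the same gene.

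Ion channel genes are mostly long. Calcium channels carry calcium across the surface or store membrane. Of 27 such genes 10 were hosts (37.0%), with 21 peaks, 1 of them in intron 1. After Cacna2d2, Cacng2 had 2 (4077 and 2209 base pairs), Ryr1 its widest of 2554, Cacna1a 1 of 2229 in intron 30 of 45, Cacna1b 1 of 1965 in the last of 46 introns, and Cacna1s 1 of 1791. Counted by the gene with the nearest TSS, only 2 calcium channel genes were left. Potassium channels set the resting potential, and 11 of 38 were hosts (28.9%). The cardiac channel gene Kcnh2 had 6484 base pairs in intron 10 of 14 (chr5:24319772-24326255). Kcnj4 had 2 (3032 and 823), Kcnk3 1 of 1638 and Kcnn3 3 of 1622, 1036 and 762. In Kcnj4 all 5 H2A.Z peaks of the gene were lower.

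Axon guidance genes had 9 hosts of 52 (17.3%), at a median of 3 H2A.Z peaks per gene. Over all protein-coding genes with 3 or 4 peaks the share was 19.7%. The semaphorin and VEGF co-receptor gene Nrp2 had 5751 base pairs in intron 1 (chr1:62702535-62708285), which held the promoter, while its other 10 peaks were in neither list. Ephb2, a receptor kinase gene for ephrin-B, had 3 (2691, 1786 and 501), Sema4d 2 (2487 and 818) and Ntn4 1 of 1821. Matrix genes had 10 hosts of 42 (23.8%), also at a median of 3 peaks per gene. Among these hosts were Col26a1 (2969), Col8a2 (2919 and 1238), Adamts2, a procollagen peptidase gene (2220, 1553 and 887, in introns 18 and 21), and Col23a1 (2035).

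Chromatin remodellers and co-repressors had the highest share of the 14 lists, with 12 hosts of 31 genes (38.7%). Prdm16, a zinc finger regulator of brown fat and heart, had 4 (2701, 970, 626 and 501 base pairs), with 11 peaks of the gene in neither list. The remodeller gene Chd3 had 2 (1941 and 1189), the BAF subunit gene Dpf3 1 of 1837 at 173 kb from a TSS, and the co-repressor gene Cbfa2t3 2 (1515 and 501). Runx, Ets and nuclear receptor factors had 9 hosts of 25 genes. The oestrogen receptor gene Esr1 had 3882 base pairs in intron 1, 1.64 kb from the TSS. The blood stem cell factor Runx1 had 2966 base pairs in intron 3 of 4, 67.1 kb from the TSS, with 7 peaks of the gene in neither list. Thra had 2104 base pairs in the last of 8 introns, and the retinoid receptor gene Rxra 1804 and 840.

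**Figure D5:**
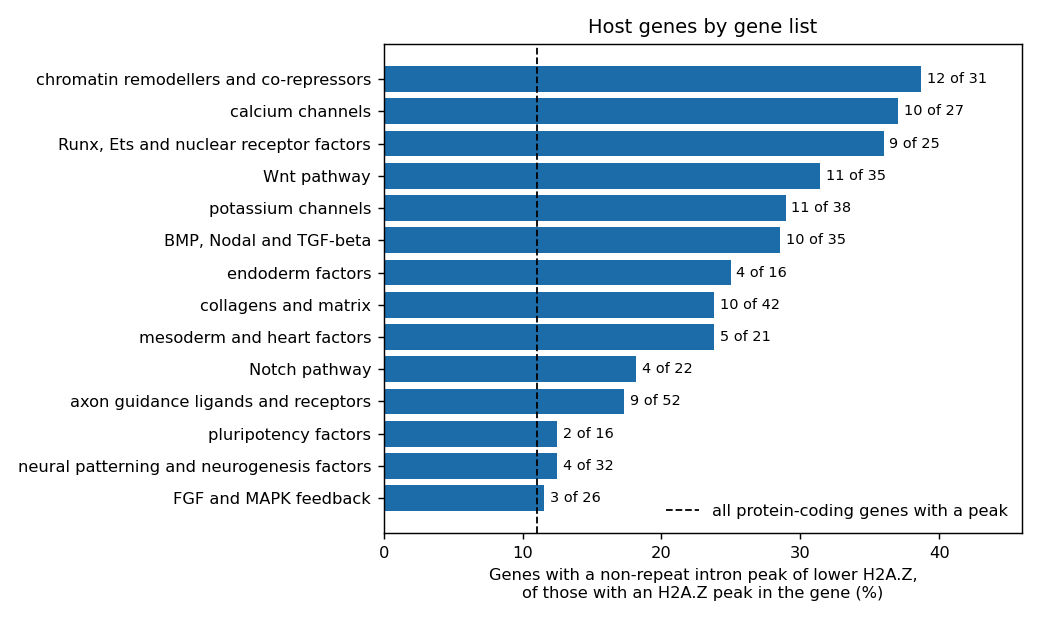
Share of genes that host a non-repeat intron peak (x axis, %) among the genes of each of 14 lists that have an H2A.Z peak in the gene; labels give the counts and the dashed line is the 11.0% over all protein-coding genes with a peak. The bars run from 11.5% for FGF and MAPK feedback to 38.7% for chromatin remodellers and co-repressors; genes of most lists have more peaks than the median gene.

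Chromosomes differed in how many of their H2A.Z peaks were lower non-repeat intron peaks. The share was highest on chromosome 11, with 182 of 3951 peaks (4.61%), and on chromosome 4, with 153 of 3704 (4.13%). It was lowest, among chromosomes with over 10 peaks, on 13 with 29 of 3019 (0.961%) and on X with 16 of 1482 (1.08%). Lower peaks of any kind also differed between chromosomes, at 837 of 3951 on 11, 681 of 3704 on 4 and 287 of 3019 on 13. The non-repeat intron peaks were 21.7% of the lower peaks on 11, 22.5% on 4 and 10.1% on 13, against 17.5% over the set. On X they were also a small share of the lower peaks, 16 of 303 (5.28%). Chromosome Y had 0 of 8 peaks, which is too few to read.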

How the data were processed

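H2A.Z CUT&Tag was analysed from 3 deposited tables: the peak set and the authors' lists of lower and higher peaks. The submitters' processing notes name deepTools, HOMER, Picard, Bowtie2 and Trimmomatic and the build GRCm38. The sources used here give no roles for them, no peak caller, and neither a test of change nor its threshold or any pooling. Both lists, per the file headers, were annotated with HOMER annotatePeaks on mm10. The peak score the authors deposited is 0 throughout and was not used.

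Intron numbers, transcripts and distances to the TSS are the authors'. Host genes were found by transcript accession in RefSeq genes of GRCm38.p6 and kept where the gene holds the peak centre. RefSeq promoter windows and miRNAs are of the same build. A genome was not used, so the sequence windows planned within introns were not made. Coordinates count from 1. Each of the 3 tests compared non-repeat with repeat intron peaks (two-sided Fisher's exact test with a Woolf interval, or permutation of medians with 100000 resamples, with Benjamini-Hochberg adjustment). Fisher's test and the permutation test, the latter on widths alone and with fewer resamples, were tried on simulated data. Distance was not simulated, and the simulated peaks were independent of each other. Shares have 95% Clopper-Pearson intervals and medians exact binomial order intervals, which cover counting only. Depth per library is unknown.

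The peaks, gene lists and tests were chosen with earlier results of these data known. The rule for named genes took the 12 widest peaks, the 10 genes with most, the 5 farthest peaks and up to 4 genes per list, leaving out unnamed models; 1 further gene and 1 gene list are not reported here. Other genes named were chosen after their values were seen. Tools were SciPy 1.17.1, matplotlib 3.10.9, pandas 2.3.3 and numpy 2.4.6 under Python 3.11.15.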

Additional observations from a re-analysis of the deposited data

How the results depend on the processing

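The lists hold no value per library, so leaving out a replicate could not be run. No paired analysis was possible because the lists carry no column per replicate. The odds ratio for intron 1 against repeat intron peaks lost its call without peaks of the minimum width (1.29, Fisher's exact test, adjusted p = 0.0664), without chromosome X (1.25, adjusted p = 0.0737) and with transcripts of 3 or more introns (1.22, adjusted p = 0.122), and kept it with 1 peak per transcript (1.39). Without L1 elements in the comparison it turned to 0.957, the difference in width turned to −347 base pairs and that in distance fell to −2267 base pairs and lost its call. Under the other 4 alternatives, distance kept a difference of −17583 to −13083 base pairs and width one of 131 to 234. With intron peaks in CpG islands added, the share in intron 1 was 49.0%, the median distance 5063 and the median width 1091 base pairs. Without peaks within 3 kb of a TSS these were 21.1%, 16844 and 906. The host was then named as the gene with the nearest TSS for 64.5% of the peaks, against 73.5% of all. Without peaks of the minimum width the median width was 1192. Another lower peak within 10 kb was found for 31.7%, against 59.1% with another on the host gene. By nearest TSS, calcium channel hosts went from 10 to 2, and BMP and matrix hosts from 10 to 6 each; the other 11 lists stayed within 1.5 times. The cause was not tested beyond the composition of each set. Peak height and depth are unknown, so which peaks could have been called lower cannot be told.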
